A study of Mus musculus with 7 samples.

Results

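The transcripts described here are those of 10 regulators of transcription in the mouse oocyte, chosen by name: Figla, Nobox, Sohlh1, Sohlh2, Lhx8, Taf4b, Tbpl2, Gata3, Pou5f1 and Sall4. Of the 37620 gene rows of the table, 9 matched these symbols. No row matched Lhx8, whose level is not analysed here; its promoter is counted below. RNA was sequenced from 7 single mature oocytes, arrested in metaphase II (MII), with a library for each. KO stands for 4 oocytes (KO1 to KO4) of genotype Hiraf/f, Zp3-Cre, and WT for 3 oocytes (WT1, WT2 and WT4) of genotype Hiraf/f. Both genotypes thus carry the floxed alleles of Hira, whose protein deposits the histone H3.3 on DNA, and only KO carries Cre. The Zp3 promoter is active in growing oocytes, so Cre acts after the primordial follicle has formed. The labels name no strain, age or animal. A genotype therefore counts as 1 sample, no test of the genotype is given, and each SD is the spread between single oocytes. "Higher" and "lower" refer to these libraries.

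Figla, Sohlh1, Sohlh2, Nobox and Lhx8 are factors of the mouse oocyte that act from the earliest follicle stages on. FIGLA, SOHLH1 and SOHLH2 are basic helix-loop-helix proteins, a class that binds E-boxes, and NOBOX and LHX8 are homeodomain proteins. They switch on genes that only oocytes use, among them those of the zona pellucida and the growth factors Gdf9 and Bmp15. In the growing mouse oocyte TBPL2 takes the place of TBP, the TATA-binding protein, and works with TFIIA. TAF4B is a gonad-rich relative of TAF4, a subunit of TFIID, the complex that places RNA polymerase II at start sites. By MII the chromosomes are condensed and transcription has stopped, so the transcripts measured are a store made earlier. Fewer transcripts per oocyte and a smaller share of the total RNA cannot be told apart from these values.

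The 4 promoters below were chosen because their genes carry the results that follow. Gata3 was over 2-fold higher in KO oocytes, Tbpl2 is the TBP relative of the oocyte, and Bmp15 and Oosp1 are oocyte genes that were lower in every KO oocyte. They are RefSeq sequences on build GRCm38.p6, from 250 bases before to 50 after the start of the gene, 5′ to 3′ on the strand of the gene. Capitals mark E-boxes (CANNTG), the NOBOX element (TAATTG or TAATTA) and the TATA box (TATAAA), each searched on both strands.
Gata3 (chr2:9878551-9878850, minus strand): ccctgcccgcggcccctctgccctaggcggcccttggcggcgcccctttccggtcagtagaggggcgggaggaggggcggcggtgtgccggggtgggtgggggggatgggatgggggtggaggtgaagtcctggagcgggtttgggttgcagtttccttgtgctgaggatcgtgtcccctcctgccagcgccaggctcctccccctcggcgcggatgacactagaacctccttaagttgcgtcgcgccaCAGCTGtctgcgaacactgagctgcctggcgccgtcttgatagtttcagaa
Tbpl2 (chr2:24096546-24096845, minus strand): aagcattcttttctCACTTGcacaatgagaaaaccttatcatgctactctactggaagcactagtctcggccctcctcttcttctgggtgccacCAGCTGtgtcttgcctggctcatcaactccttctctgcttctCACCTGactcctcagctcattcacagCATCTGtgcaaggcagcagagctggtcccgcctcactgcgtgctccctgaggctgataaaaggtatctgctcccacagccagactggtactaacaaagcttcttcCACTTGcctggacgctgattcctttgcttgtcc
Bmp15 (chrX:6320675-6320974, minus strand): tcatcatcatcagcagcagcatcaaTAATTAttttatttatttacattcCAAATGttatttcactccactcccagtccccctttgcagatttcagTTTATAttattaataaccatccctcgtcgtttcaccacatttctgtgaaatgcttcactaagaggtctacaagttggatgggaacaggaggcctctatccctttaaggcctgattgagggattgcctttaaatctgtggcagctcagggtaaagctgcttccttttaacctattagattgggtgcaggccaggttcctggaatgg
Oosp1 (chr19:11691002-11691301, minus strand): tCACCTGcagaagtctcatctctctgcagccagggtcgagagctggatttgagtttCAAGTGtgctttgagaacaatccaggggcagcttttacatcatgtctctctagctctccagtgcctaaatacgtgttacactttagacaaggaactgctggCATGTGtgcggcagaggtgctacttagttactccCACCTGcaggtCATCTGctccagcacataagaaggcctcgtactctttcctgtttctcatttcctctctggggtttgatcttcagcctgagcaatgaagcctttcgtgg

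Tbpl2 and Oosp1 held 5 E-boxes each, and Gata3 held 1, which spans the start site. Bmp15 held 1 E-box, 1 NOBOX element and 1 TATA box, the last on the opposite strand, with no overlap between them. E-boxes were present in 72.3% of the 32851 RefSeq promoter windows of this length, with a median of 1 per window. The NOBOX element was present in 12.4% and the TATA box in 13.6% of windows. Of the 10 regulators, 8 had a promoter that could be shown, of which 7 held an E-box, the exception being Lhx8, and none held the NOBOX element or the TATA box. Of the 16 oocyte genes listed below, 8 had a promoter, of which 8 held an E-box, 2 the NOBOX element and 2 the TATA box. These matches describe letters only.

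Hira was lower in every KO oocyte. Its level was 0.0941, 0.0955, 0.0242 and 0.0997 FPKM (fragments per kilobase of gene, scaled to the reads of the library) in KO1 to KO4, against 0.312, 0.347 and 0.291 FPKM in WT1, WT2 and WT4. The FPKM values were resolved into whole reads, which gave 49 Hira reads over the KO oocytes (95% Poisson interval 36.3 to 64.8) and 132 over the WT oocytes (110 to 157). These values cover the whole gene and not the deleted part alone. Each oocyte had between 15340782 and 25940519 reads in genes. Every KO oocyte had more genes at 1 FPKM or more (7664 to 8222) than every WT oocyte (6959 to 7286). The part of this difference in the results below was not tested. Intervals on reads cover counting error only, since reads of amplified cDNA are not independent molecules. All 12 oocyte markers examined were above the expression filter, which asks for 1 FPKM or more in no fewer than 3 libraries. Their summed level was 7542 to 8739 FPKM in KO and 10691 to 11793 FPKM in WT oocytes. Of the 12, 4 were over 1.5-fold lower and none higher, beside 7.92% and 22.6% of all genes above the filter. Those 4, Zp2, Gdf9, Bmp15 and Oosp1, are also among the listed oocyte genes below. Of 15 markers of granulosa and cumulus cells, 13 stayed under 1 FPKM in every library, and Foxl2, Amh, Amhr2, Nr5a1, Wt1 and Tnfaip6 were at 0 in all 7. The exceptions were Kitl, the ligand of the receptor KIT, and Fshr, the FSH receptor. Kitl was at 6.22, 4.10, 3.53 and 4.21 FPKM in KO1 to KO4, against 2.90, 3.20 and 3.22 FPKM in WT1, WT2 and WT4. Fshr was at 0, 2.99, 4.34 and 4.51 FPKM in KO1 to KO4 and at 0 in every WT oocyte. The summed level of this list was 7.01 to 9.82 FPKM in KO and 3.27 to 3.84 FPKM in WT oocytes. Of 7 matched markers of blood, vessels and stroma, 3 were at 0 in all libraries, and their summed level was 3.24 to 5.08 FPKM in KO and 5.73 to 7.31 FPKM in WT oocytes. The part of these markers in the results below was not tested.

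Of the 9 measured regulators, 8 were above the filter. Of these 8, Gata3, Taf4b and Sohlh2 were over 1.5-fold higher in KO oocytes, none was over 1.5-fold lower, and 5 were within 1.5-fold. Differences are of mean log2(FPKM + 1), KO minus WT, a scale that understates changes of low genes. Of all 8033 genes that passed the filter, 22.6% exceeded 1.5-fold upward in KO and 7.92% downward. The median difference was 0.32 for the 8 regulators and 0.18 for all genes. With a filter at FPKM 10 in 3 libraries these medians were 0.39 and 0.09, with fewer genes in each. No test of the list was made. The threshold of 1.5-fold fell between Sohlh2, past it with 0.81, and Tbpl2, short of it with 0.39. For Gata3, Taf4b and Tbpl2 all KO oocytes lay above all WT oocytes, which is 3 of 8, against 18.9% of all genes. For none of the 8 did all KO oocytes lie below all WT oocytes, against 8.94% of all genes. Separation was examined on the deposited scale alone. There Tbpl2 was only just separated, with KO2 at 15.6 and WT1 at 15.4 FPKM. The median over all genes was -0.01 after median-ratio scaling and 0.00 after quantile normalization. Over all genes the split of 1814 over 1.5-fold higher and 636 lower was 1192 and 1128 with median-ratio scaling, and 1155 and 1018 with quantile normalization.

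**Figure D1:**
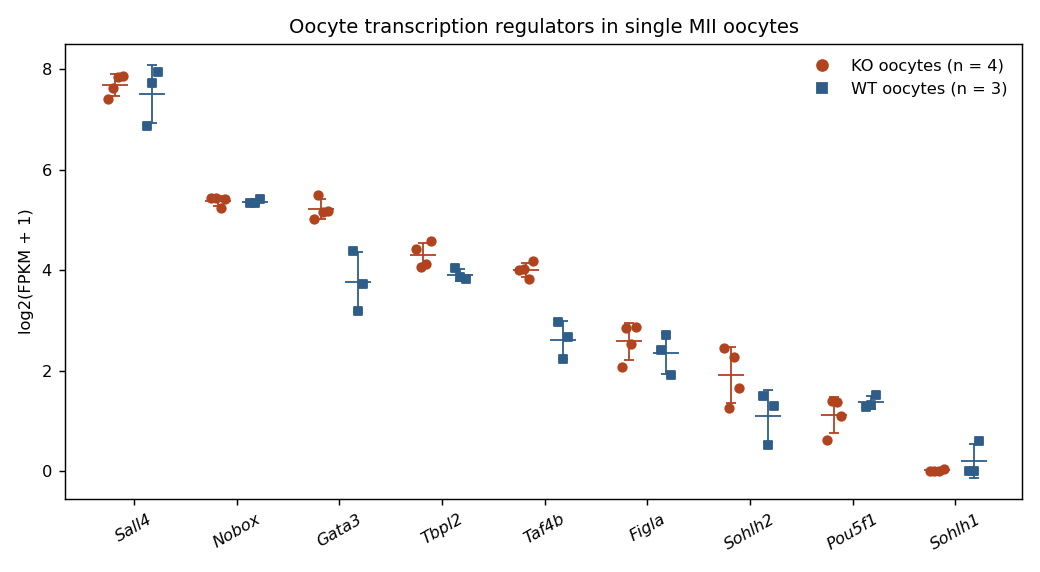
Level of each regulator in single MII oocytes as log2(FPKM + 1), ordered by the KO mean. Points are oocytes (4 KO, circles; 3 WT, squares) and bars are the mean and SD over oocytes; the genotypes do not overlap for Gata3, Taf4b and Tbpl2.

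The regulators spanned a wide range of levels. In KO oocytes the order of mean FPKM was Sall4, Nobox, Gata3, Tbpl2, Taf4b, Figla, Sohlh2, Pou5f1 and Sohlh1. In WT oocytes it was Sall4, Nobox, Tbpl2, Gata3, Taf4b, Figla, Pou5f1, Sohlh2 and Sohlh1. Neighbours whose oocytes overlapped were Nobox and Gata3, Tbpl2 and Taf4b, Figla and Sohlh2, and Sohlh2 and Pou5f1 in KO oocytes. In WT oocytes they were Tbpl2 and Gata3, Taf4b and Figla, Pou5f1 and Sohlh2, and Sohlh2 and Sohlh1. By FPKM, Gata3 thus lay beside Nobox in KO oocytes and beside Tbpl2 in WT oocytes. The order depends on the gene lengths behind the FPKM. In KO oocytes Gata3 had more reads than Nobox (22274 against 9748). Taf4b there had more than Tbpl2 (3868 against 3167), and Sohlh2 more than Figla (695 against 397).

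Among the early helix-loop-helix factors, the 3 measured genes were low and differed in how they varied. Figla, the factor of the zona genes, was at 3.21, 6.20, 4.80 and 6.32 FPKM in KO1 to KO4, against 4.33, 5.49 and 2.75 FPKM in WT1, WT2 and WT4. The genotypes overlapped, with 5.13 ± 1.46 FPKM in KO (SD, n = 4) and 4.19 ± 1.37 FPKM in WT oocytes (SD, n = 3). The log2 difference of 0.24 was 0.04 with median-ratio scaling and 0.00 with quantile normalization, and it was 0.03 without WT4. Sohlh2, which pairs with SOHLH1, was at 4.49, 1.39, 3.79 and 2.16 FPKM in KO1 to KO4, against 1.81, 0.423 and 1.46 FPKM in WT1, WT2 and WT4. All KO oocytes but KO2 were above every WT oocyte, and KO2 was within the WT range. Its difference of 0.81 was under 1.5-fold in 3 alternatives, at 0.51 without WT2, 0.57 with quantile normalization and 0.34 with a pseudocount of 5. On 695 KO reads and 174 WT reads the rate was 2.53 times as high in KO (exact 95% interval 2.14 to 3.01), an interval for these libraries alone. Sohlh1 was close to absent. It had 1 read, in KO4, over the KO oocytes and 12 reads over the WT oocytes, all of them in WT4. The rate ratio of KO to WT was 0.0529 (0.00124 to 0.357). In the oocytes at 0 the limit of 3 reads corresponds to 0.12 FPKM in KO1, 0.0978 in KO2, 0.0744 in KO3, 0.114 in WT1 and 0.0969 in WT2. Sohlh1 is known for its role in spermatogonia and in the first follicles.

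Nobox, the homeodomain factor, was at a similar level in all 7 oocytes. It was 42.5, 42.1, 36.7 and 41.7 FPKM in KO1 to KO4, against 39.5, 39.5 and 41.4 FPKM in WT1, WT2 and WT4. The means were 40.8 ± 2.73 FPKM in KO (SD, n = 4) and 40.2 ± 1.11 FPKM in WT oocytes (SD, n = 3), and the difference was 0.02. The sign depended on the scale, with -0.22 under median-ratio scaling and -0.05 under quantile normalization. On the deposited scale 9748 KO reads and 6040 WT reads gave a rate ratio of 1.02 (0.992 to 1.06). The WT oocytes lay inside the KO range.

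The genes of the proteins with which these factors act lay on both sides. FIGLA pairs with E proteins, encoded by Tcf3, Tcf4 and Tcf12, and LIM-homeodomain factors work with the cofactors of Ldb1 and Ldb2. Of these 5 genes, 3 were above the filter, 1 over 1.5-fold higher and 1 lower, beside 22.6% and 7.92% of all genes. Tcf12 was at 2.25 ± 1.15 FPKM in KO (SD, n = 4) and 0.874 ± 0.965 FPKM in WT oocytes (SD, n = 3), with overlap, and the WT1 level of 1.99 FPKM was far above the 0.295 and 0.339 FPKM of WT2 and WT4. Ldb2 was at 5.41 ± 3.32 FPKM in KO and 9.20 ± 2.89 FPKM in WT oocytes, also with overlap. KO1, at 1.5 FPKM, was the lowest, and without it the difference of -0.81 was -0.42. With a pseudocount of 5 both Tcf12 (0.30) and Ldb2 (-0.49) were under 1.5-fold. Tcf3 and Tcf4 were below the filter. Tcf3 was higher in every KO oocyte (0.750 to 1.17 FPKM, against 0.268 to 0.717 in WT oocytes), and Tcf4 was lower in every KO oocyte (0.102 to 0.245 FPKM, against 0.562 to 0.636 in WT oocytes).

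Taf4b was higher in every KO oocyte, and with Gata3 it was over 2-fold apart in log2(FPKM + 1). Sohlh2, with 0.81 on that scale, was 2.40-fold apart by mean FPKM. The level of Taf4b was 15.0, 15.2, 13.1 and 17.0 FPKM in KO1 to KO4, against 6.85, 3.66 and 5.31 FPKM in WT1, WT2 and WT4. The lowest KO oocyte stood clear of the highest WT oocyte, and the KO oocytes varied little. The mean was 15.1 ± 1.62 FPKM in KO (SD, n = 4) and 5.27 ± 1.59 FPKM in WT oocytes (SD, n = 3), a ratio of 2.86. The difference of 1.38 was 1.17 with median-ratio scaling and 1.19 with quantile normalization. Over all genes 7.95% exceeded 2-fold upward in KO and 2.34% downward. The 3868 KO reads and 836 WT reads gave a rate ratio of 2.94 (2.72 to 3.17). In these oocytes its broadly used relative Taf4 was higher as well, at 19.4 ± 4.02 FPKM in KO (SD, n = 4) and 10.9 ± 4.68 FPKM in WT oocytes (SD, n = 3). The genotypes overlapped for Taf4, because WT1 was above KO3. The FPKM ratio of Taf4b to Taf4 within an oocyte does not depend on the scaling of the library. It was 0.621, 0.865, 0.871 and 0.810 in KO1 to KO4, against 0.422, 0.442 and 0.661 in WT1, WT2 and WT4. WT4 was above KO1, so this ratio overlapped, and Taf4 transcripts were the more abundant of the pair in all 7 oocytes.

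Tbpl2 was higher in every KO oocyte by a smaller step. Its level was 20.4, 15.6, 16.5 and 23.0 FPKM in KO1 to KO4, against 15.4, 13.5 and 13.1 FPKM in WT1, WT2 and WT4. KO2 and WT1 nearly touched. The means were 18.9 ± 3.45 FPKM in KO (SD, n = 4) and 14 ± 1.25 FPKM in WT oocytes (SD, n = 3). The difference of 0.39, a ratio of 1.35, was 0.16 with median-ratio scaling and 0.24 with quantile normalization, where the median of all genes was near 0. Tbp, which TBPL2 replaces in the growing oocyte, was at 2.94 ± 0.667 FPKM in KO and 3.29 ± 0.326 FPKM in WT oocytes, with overlap. Tbpl2 thus had the higher FPKM of the pair in every oocyte. Tbp had more reads in every oocyte, with 4649 in KO and 3376 in WT, against 3167 and 1480 for Tbpl2. The order of the pair therefore depends on the gene lengths behind the FPKM, and which transcript was more abundant was not tested. The FPKM ratio of Tbpl2 to Tbp was 5.73, 5.27, 8.21 and 7.16 in KO1 to KO4, against 5.25, 3.76 and 3.90 in WT1, WT2 and WT4. All KO oocytes were above all WT oocytes, but KO2 and WT1 were almost equal. In the annotation 19.0% of the exon bases of Tbp overlap those of Pdcd2 on the other strand, and Pdcd2 was listed at 0 in every library. Of the 50-base stretches of Tbp, 16.3% also occur in transcripts of other genes on either strand, most often in Pdcd2. This share includes the overlap, where reads may be shared. Tbpl1, the third member of the family and known from the mouse testis, was at 4.79 ± 1.92 FPKM in KO and 2.28 ± 1.69 FPKM in WT oocytes. Its oocytes overlapped, since WT2 was at 4.09 and KO1 at 2.16 FPKM. Of its exon bases, 12.4% overlap those of Slc2a12 on the other strand, and Slc2a12 was at 3.15 ± 1.41 FPKM in KO and 1.32 ± 0.515 FPKM in WT oocytes. Its part in the Tbpl1 value was not tested.

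The other subunits of TFIID and TFIIA lay on both sides. Of 20 genes, 19 were above the filter, 5 over 1.5-fold higher, 1 over 1.5-fold lower and 13 within 1.5-fold, near the shares of 22.6% and 7.92% over all genes. The median difference was -0.13, beside 0.18 for all genes. It was -0.33 with median-ratio scaling and -0.25 with quantile normalization, but 0.18 without WT4 and 0.02 without KO1. All KO oocytes lay above all WT oocytes for Taf7, Taf11 and Gtf2a1l, and below them for Taf9, Taf9b, Taf12 and Gtf2a1. That is 3 and 4 of 19 genes, beside 18.9% above and 8.94% below over all genes. Taf11, a histone-fold subunit, was at 11.2 ± 1.60 FPKM in KO (SD, n = 4) and 7.13 ± 1.42 FPKM in WT oocytes (SD, n = 3). Taf2, which contacts the start site, was at 8.48 ± 1.54 FPKM in KO and 5.48 ± 2.42 FPKM in WT oocytes, with overlap. Taf2 stayed past 1.5-fold in 7 of 13 alternatives, with 0.32 at the lowest, without WT2, and it was also under 1.5-fold without KO1 (0.51) and without KO3 (0.58). Taf11 stayed past it in 9 of 14, with 0.37 at the lowest, under median-ratio scaling, and was under it without KO1 (0.51) and without WT2 (0.46). Tbpl1 stayed past it in 11 of 13, the exceptions being a pseudocount of 5 (0.43) and the fit without WT1 (0.49). Taf7 was at 147 ± 14.7 FPKM in KO and 110 ± 10.4 FPKM in WT oocytes. The related subunits Taf9 (134 ± 15.6 FPKM in KO, 196 ± 12.0 in WT) and Taf9b (74.8 ± 7.78 FPKM in KO, 106 ± 17.4 in WT) were lower in KO by less than 1.5-fold on the deposited scale. With median-ratio scaling both were past it (-0.80 for Taf9, -0.73 for Taf9b), and Taf9 also without KO1 (-0.60), without KO3 (-0.59) or without WT4 (-0.59). Taf7l, a germ-cell relative of Taf7, was listed at 0 in every library.

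In TFIIA, with which TBPL2 works in the oocyte, related genes differed in opposite directions. Gtf2a1, the broadly used large subunit, was at 90.8, 89.5, 114 and 131 FPKM in KO1 to KO4, against 159, 250 and 267 FPKM in WT1, WT2 and WT4. Gtf2a1l, its germ-cell relative, was at 37.9, 45.1, 69.3 and 52.9 FPKM in KO1 to KO4, against 26.6, 26.7 and 34.5 FPKM in WT1, WT2 and WT4. Neither gene overlapped between genotypes. The difference of Gtf2a1l was 0.77, and 0.53, under 1.5-fold, with median-ratio scaling. The ratio of Gtf2a1l to Gtf2a1 was 0.417, 0.504, 0.609 and 0.404 in KO1 to KO4, against 0.167, 0.107 and 0.129 in WT1, WT2 and WT4. The mean ratio was 3.59 times as high in KO as in WT oocytes. Gtf2a1 was the more abundant transcript in all 7 oocytes. Gtf2a2, the small subunit, was at 39.5 ± 2.51 FPKM in KO and 45.4 ± 5.54 FPKM in WT oocytes, with overlap.

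**Figure D2:**
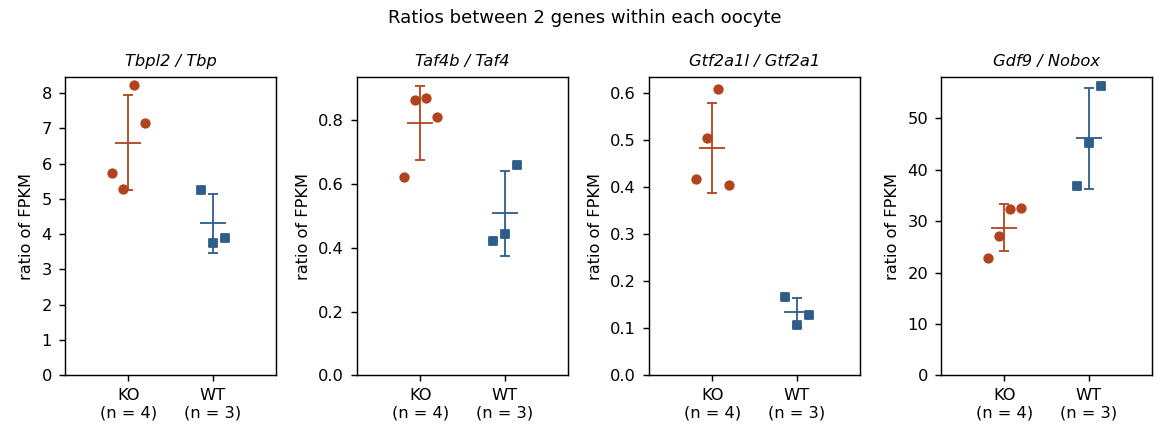
FPKM ratio of 2 genes within each oocyte, with the axis starting at 0. Points are oocytes (4 KO, circles; 3 WT, squares) and bars are the mean and SD; Gtf2a1l to Gtf2a1 is higher and Gdf9 to Nobox lower in every KO oocyte, Tbpl2 to Tbp is barely separated, and Taf4b to Taf4 overlaps.

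Gata3 was higher in every KO oocyte, by a step close to that of Taf4b. The gene encodes a zinc finger factor best known from T cells and from the trophectoderm of the early embryo. Its level was 31.5, 43.8, 34.4 and 35.2 FPKM in KO1 to KO4, against 19.8, 8.05 and 12.2 FPKM in WT1, WT2 and WT4. The lowest KO oocyte stood clear of the highest WT oocyte, which was WT1. The means were 36.2 ± 5.32 FPKM in KO (SD, n = 4) and 13.3 ± 5.94 FPKM in WT oocytes (SD, n = 3), a ratio of 2.72. The difference of 1.45 was 1.22 with median-ratio scaling, 1.30 with quantile normalization, and between 1.16 and 1.76 without any 1 of the WT oocytes. The 22274 KO reads and 5003 WT reads gave a rate ratio of 2.83 (2.74 to 2.91). In the annotation 3.90% of its exon bases overlap Gm13256 and 1.94% overlap 9230102O04Rik, both listed at 0 in every library. Within the GATA family, Gata3 made up 91.8% to 94.3% of the summed FPKM in KO oocytes and 76.8% to 85.9% in WT oocytes. Gata4, known from granulosa cells, was the only relative above the filter, at 1.73 ± 0.486 FPKM in KO and 2.09 ± 0.499 FPKM in WT oocytes, with overlap. Of the 15 relatives of Gata3, Sall4 and Lhx8 examined, 13 were under 1 FPKM in every library.

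Pou5f1, the OCT4 gene of pluripotent cells and of the germ line, was low in both genotypes. Its level was 0.532, 1.62, 1.58 and 1.14 FPKM in KO1 to KO4, against 1.41, 1.48 and 1.85 FPKM in WT1, WT2 and WT4. KO1 was the lowest, and the genotypes overlapped. The means were 1.22 ± 0.506 FPKM in KO (SD, n = 4) and 1.58 ± 0.238 FPKM in WT oocytes (SD, n = 3), with a difference of -0.25. It was the only regulator above the filter with a negative difference on the deposited scale; with median-ratio scaling Nobox and Sall4 were negative too. Of its exon bases, 14.1% overlap the antisense gene Gm19553, which was listed at 0 in every library. Of the 50-base stretches of Pou5f1, 10.1% also occur in transcripts of other genes on either strand, most often in Gm19553. This share includes the overlap.

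Sall4, a zinc finger factor of germ cells and stem cells, was the most abundant of the regulators in every oocyte. Its level was 168, 197, 228 and 231 FPKM in KO1 to KO4, against 115, 211 and 246 FPKM in WT1, WT2 and WT4. In each oocyte it was among the top 1.03% to 2.57% of genes with a value. WT1 was the lowest of the 7 and WT4 the highest, so the KO oocytes lay inside the WT range. The difference of 0.17 turned to -0.15 without WT1 and to -0.07 with median-ratio scaling, and was 0.31 with quantile normalization. Of its exon bases, 9.5% overlap Gm14261 on the other strand, which had 1 read in each genotype. Of the 50-base stretches of Sall4, 7.64% also occur in transcripts of other genes on either strand, most often in Gm14261. This share includes the overlap.

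Most other pluripotency genes were low. Of 16 genes, 5 passed the filter, of which 3 exceeded 1.5-fold upward and none downward, beside 22.6% and 7.92% of all genes. Esrrb, under 1 FPKM in every WT oocyte, passed through the KO oocytes alone. The median difference of the 5 was 0.75, and 0.35 with no filter. It was 0.56 with median-ratio scaling and 0.50 with quantile normalization. Of the 16, 9 were under 1 FPKM in every library and 4 were at 0 in all. Nr5a2, a nuclear receptor also known from granulosa cells, was at 6.19, 8.39, 7.06 and 7.35 FPKM in KO1 to KO4, against 1.38, 3.13 and 3.08 FPKM in WT1, WT2 and WT4. Esrrb, an orphan nuclear receptor, was at 1.92, 3.56, 1.32 and 2.03 FPKM in KO1 to KO4, against 0.554, 0.729 and 0.737 FPKM in WT1, WT2 and WT4. Tfap2c, a factor of the germ line and the trophoblast, was at 5.28 ± 1.01 FPKM in KO (SD, n = 4) and 2.80 ± 1.11 FPKM in WT oocytes (SD, n = 3). Each was higher in every KO oocyte, though with a pseudocount of 5 Esrrb (0.34) and Tfap2c (0.40) were under 1.5-fold. Tfap2c was also under it with median-ratio scaling (0.56) and quantile normalization (0.50). Lin28a (0.46) and Dppa2 (0.40) were within 1.5-fold and overlapped. The filter lets a low gene in through the genotype where it is higher, so these counts describe the genes that passed. Below it, Klf4 was at 0.564 to 0.930 FPKM in KO and 0.0202 to 0.311 FPKM in WT oocytes, on 441 KO reads and 51 WT reads. Sox2, the partner of OCT4, had 75 KO reads and 6 WT reads.

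Of the oocyte genes that depend on the early factors, more had a negative than a positive difference, 11 against 4, where all genes had 2907 negative and 5126 positive. The list holds genes known to need Figla, Nobox or their partners in the mouse ovary, and 15 of 16 were above the filter. None was over 1.5-fold higher and 5 were over 1.5-fold lower, with 10 within 1.5-fold, beside 22.6% higher and 7.92% lower over all genes. The median difference was -0.26, and 0.18 over all genes. The values over all genes depend on the level asked for. With a filter at FPKM 10 in 3 libraries, the median of the listed genes was again -0.26. The median of all 2967 genes that passed was then 0.09, with 536 over 1.5-fold higher and 288 lower. The oocyte markers whose sum is given above hold many of the same genes. The median was -0.50 with median-ratio scaling, -0.17 with quantile normalization and -0.53 without WT2. Gdf9, a growth factor that oocytes send to granulosa cells, was at 975, 1141, 1185 and 1360 FPKM in KO1 to KO4, against 1452, 1786 and 2331 FPKM in WT1, WT2 and WT4. Bmp15, its partner, was at 601, 790, 624 and 611 FPKM in KO1 to KO4, against 1189, 916 and 960 FPKM in WT1, WT2 and WT4. Neither gene overlapped. Oosp1, an oocyte-secreted protein whose promoter is shown above, was at 1592 ± 264 FPKM in KO (SD, n = 4) and 2496 ± 274 FPKM in WT oocytes (SD, n = 3), without overlap. Nlrp14 was at 405 ± 125 FPKM in KO and 610 ± 82.5 FPKM in WT oocytes, also without overlap. With quantile normalization the differences of Gdf9 (-0.46), Bmp15 (-0.44), Oosp1 (-0.47) and Nlrp14 (-0.40) were under 1.5-fold. Without 1 oocyte, Gdf9 was under it without WT4 (-0.48) or KO1 (-0.57), Nlrp14 without KO1 (-0.39) or WT2 (-0.56), and Bmp15 without WT1 (-0.52). H1foo, the linker histone of the oocyte, was at 3621 ± 401 FPKM in KO and 4480 ± 215 FPKM in WT oocytes, the last of the 5 genes without overlap, and within 1.5-fold. Those 5 of 15 were lower in every KO oocyte and none was higher in every one, beside 8.94% and 18.9% of all genes. Zp2, a zona protein and a target of FIGLA, was at 60.3 ± 24.3 FPKM in KO and 120 ± 45.5 FPKM in WT oocytes, with overlap.

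Nobox and Gdf9, the regulator and a gene known to need it, stood in a different ratio in the genotypes. The ratio of FPKM of Gdf9 to Nobox was 22.9, 27.1, 32.3 and 32.6 in KO1 to KO4, against 36.8, 45.2 and 56.3 in WT1, WT2 and WT4. The ratio of Bmp15 to Nobox was 14.1, 18.8, 17.0 and 14.6 in KO1 to KO4, against 30.1, 23.2 and 23.2 in WT1, WT2 and WT4. Both ratios were lower in every KO oocyte, and neither depends on the scaling of the library. The KO mean was 0.624 times the WT mean for Gdf9 and 0.633 times for Bmp15. By mean FPKM alone, Gdf9 was 0.628 times and Bmp15 0.642 times the WT level, and Nobox 1.01 times. The ratios thus restate the differences of Gdf9 and Bmp15 and are not a separate result. The 10 other genes above the filter overlapped between genotypes, among them Mos (229 ± 39.6 FPKM in KO, 208 ± 42.5 in WT) and Npm2 (704 ± 93.2 FPKM in KO, 601 ± 95.5 in WT).

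**Figure D3:**
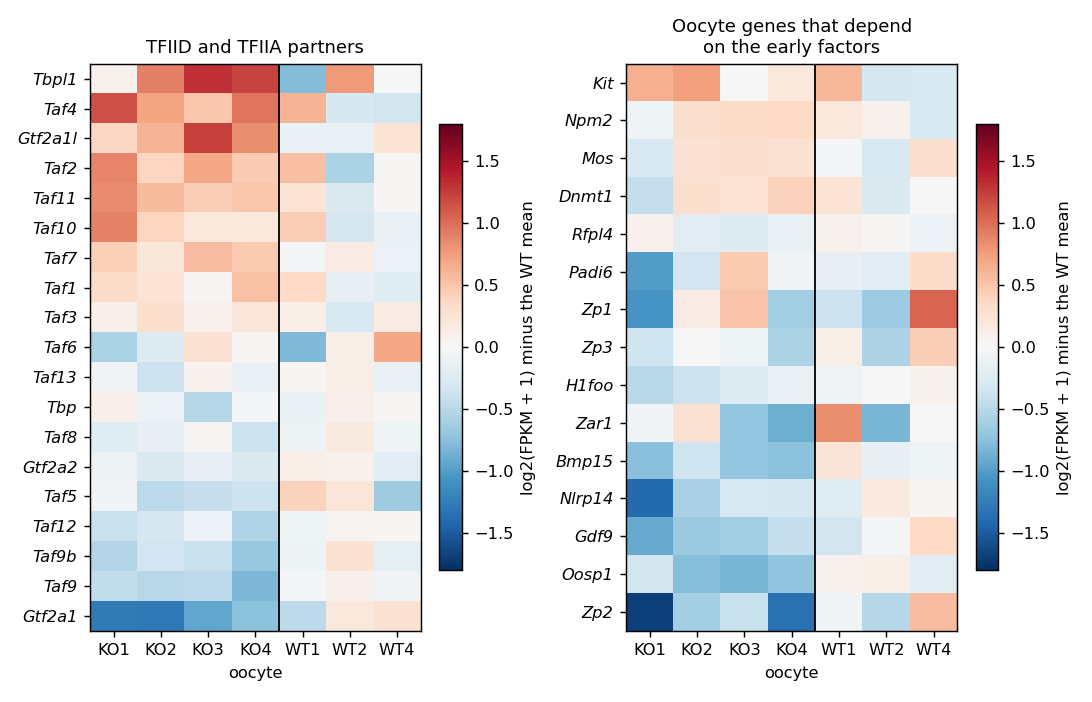
Level of each TFIID and TFIIA partner (left) and each listed oocyte gene (right) above the filter, as log2(FPKM + 1) minus the WT mean, with 1 column per oocyte (4 KO, then 3 WT). Genes are ordered by the KO minus WT difference; Gtf2a1 and Gtf2a1l lie near opposite ends on the left, and no gene on the right is over 1.5-fold higher.

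The genes with the pattern most like that of each regulator over 1.5-fold apart were found by the root mean square difference of log2(FPKM + 1) over the 7 oocytes, each gene centred on its mean. For Taf4b they were Fam117a (0.093), Timm29 (0.142) and Trim28 (0.144), the last a corepressor. For Gata3 they were Hnrnpab (0.148), Ttyh3 (0.18) and Ppp2r5e (0.191). For Sohlh2 they were Amacr (0.254), Taf2 (0.257) and Mrpl3 (0.258). Taf4b had 186 genes within 0.3 of it, Gata3 had 76 and Sohlh2 had 15. Each pattern rests on 7 libraries.

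**Figure D4:**
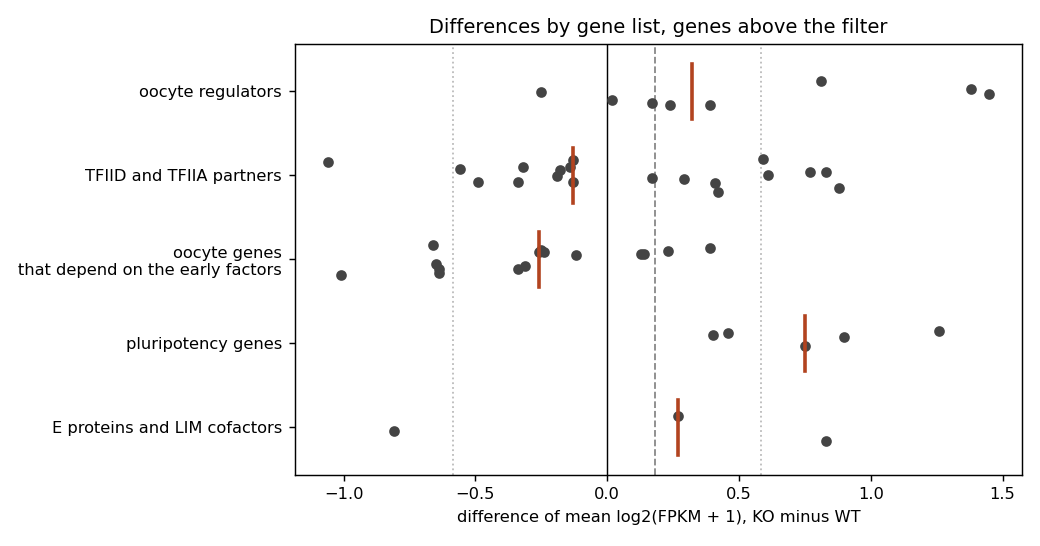
KO minus WT difference in mean log2(FPKM + 1) of the genes above the filter, by list; each point is a gene and each red bar the median of its list. The dashed line is the median of all 8033 genes (0.18) and dotted lines mark 1.5-fold; the regulators reach 1.45 (Gata3), and the listed oocyte genes have a median of -0.26.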

How the data were processed

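RNA of 7 single MII oocytes was amplified with an ultra-low-input kit and sequenced, per the labels' protocols. The authors deposited FPKM values on a linear scale. The submitters' processing notes name the mm9 build, edgeR 3.1.10, HTSeq, TopHat2 2.0.2, Bowtie 0.12.8, Bowtie2 and TopHat, with no role for each. Whether counting used strand is not given in the sources used here. Symbols came from GENCODE by Ensembl identifier (87.4% of rows), gene overlaps from GENCODE and promoters from RefSeq, both on GRCm38.

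Within a gene, FPKM values were whole multiples of a step, which gave whole reads for all 18300 genes with a value (tolerance 0.01). These are the smallest possible numbers, and for 2437 genes seen in 1 library they are not determined. Oocytes of a genotype differed beyond counting error (chi-square per gene 48.0 to 97.9).

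Means of log2(FPKM + 1) were compared, KO minus WT. Read intervals are exact Poisson ones and, for ratios, conditional binomial ones, at 95%. The scripts were tested on simulated data. On simulated reads with counting error alone, 83.3% of 2-fold increases and 86.4% of 2-fold decreases passed 1.5-fold, and 0% of unchanged genes did. The simulation left out the further spread between oocytes, so it does not give error rates for these data. The pseudocount, filter, scaling, kind of mean and each oocyte were varied. The regulators and gene lists were chosen with earlier results of these data known. Names follow a rule: the regulators and Hira, relatives of Taf4b and Tbpl2, up to 6 genes per list over 1.5-fold apart, defining markers at 0, and the 3 nearest patterns. Taf7, Taf7l, Taf9, Taf9b, Taf12, Gtf2a2, Tcf3, Tcf4, Klf4, Sox2, Gata4, H1foo, Lin28a, Dppa2, Mos, Npm2, Kitl, genes overlapping a named one, and the ratios were chosen after values were seen. Pecam1 was chosen in the same way. Python 3.11.15, NumPy 2.4.6, pandas 2.3.3, SciPy 1.17.1 and matplotlib 3.10.9 were used.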

Additional observations from a re-analysis of the deposited data

Results flagged for a closer look

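Of 40 sets of 4 KO oocytes examined, 5 had an oocyte far from the other KO oocytes by Dixon's ratio of the gap to the range, which exceeds its 95% critical value by chance in about 1 of 20 sets. Nobox was lowest in KO3, at 36.7 FPKM (ratio 0.864), and that oocyte was also below every WT oocyte. Sohlh1 was highest in KO4, at 0.0300 FPKM (ratio 1.00), which is 1 read beside 0 in the other KO oocytes. Hira was lowest in KO3, at 0.0242 FPKM (ratio 0.926). Bmp15 was highest in KO2, at 790 FPKM (ratio 0.879), still below every WT oocyte. Taf9 was lowest in KO4, at 111 FPKM (ratio 0.831).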

How the results depend on the processing

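No paired analysis was possible because the replicate numbers name single oocytes with no stated link across genotypes. The count of regulators over 1.5-fold higher was 2 or 3 under all 14 alternatives, and the count lower was 0. Median-ratio scaling moved the median difference of the regulators to 0.10, of the TFIID and TFIIA partners to -0.33 and of the listed oocyte genes to -0.50. Quantile normalization moved the partners to -0.25, the pluripotency genes to 0.50 and the GATA, SALL and LIM-homeobox relatives to -0.44, the last being Gata4 alone. The pluripotency median was 0.36 with a pseudocount of 5, 0.35 with no filter and 0.40 with a filter at FPKM 10. Without 1 oocyte at a time the partners ranged from -0.12 to 0.18, the listed oocyte genes from -0.53 to -0.16, the regulators from 0.22 to 0.39, the pluripotency genes from 0.64 to 0.84 and the relatives from -0.33 to -0.07. The E proteins and LIM cofactors, 3 genes, ranged from 0.05 to 0.42. The cause of these shifts was not tested. Over 31 single genes, 422 values under alternatives were computed, of which 22 moved by more than the SD between oocytes and 0 turned a difference over 1.5-fold round. Depth limits Sohlh1, Pou5f1, Figla and Sohlh2 most. Reads of amplified cDNA are not independent molecules, so the spread between oocytes, not the read interval, bounds what the regulators show.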
